A study of Flaveria ramosissima and Flaveria robusta and Flaveria sonorensis with 9 samples.

Results

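The leaf transcript response of Flaveria trinervia, the C4 species of the series, to 4 weeks of low CO2 was examined. Its members were the rows of the deposited table that averaged 1 TPM or more across the 6 F. trinervia libraries, leaving out IDs that occur more than once. TPM, a unit of transcript abundance, gives each row's share of the transcripts of its library, and each row is treated here as 1 gene. Of the 29566 rows, 13793 (46.7%) were members. The lowest member had a mean of 1 TPM and the highest row left out for its level 0.998 TPM. A repeated ID excluded 8 rows, and 10948 rows were at 0 in all 6 libraries.

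The low CO2 group was F. trinervia kept for 4 weeks at a CO2 level that the labels give as 100, and its control was F. trinervia at the level given as 380. Their unit in the labels is that of light intensity. Plants of both groups grew at a light intensity of 200, 22 °C and 70% humidity with 16 h of light and 8 h of dark, and newly expanded mature leaves were sequenced with 150 bp paired-end reads. The C3 species F. robusta and the C3-C4 species F. sonorensis (Type I) and F. ramosissima (Type II) were sampled in the same pair of groups. Each species and CO2 level is 1 sample with 3 numbered libraries. The sources do not state that these libraries came from separate plants, so the p-values measure only the spread between libraries, which may be technical. They name no separate growth runs, so CO2 level and growth run cannot be told apart.

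In a C3 leaf, Rubisco fixes CO2 in the mesophyll, and when CO2 is scarce it reacts more often with oxygen, which starts photorespiration. A C4 leaf captures carbon in the mesophyll with phosphoenolpyruvate (PEP) carboxylase, carries it as C4 acids to the bundle sheath and releases CO2 there beside Rubisco, a cycle that also needs transporters such as those moving PEP across the chloroplast envelope. C3-C4 intermediates hold part of this machinery, and in Type I species it consists mainly of the recapture of photorespired CO2 in the bundle sheath.

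The IDs of the table are running numbers with no gene names (0 of 38 symbols from the lists of C4 shuttle, photorespiration, Calvin-Benson cycle and leaf cell type genes could be matched). No transcript is therefore assigned a function, and the leaf label was not checked against markers. The rows are described by their abundance, by the size and direction of their change, and by what the same rows did in the other species.

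The deposited rows of an F. trinervia library summed to between 91.6% and 92.4% of the TPM total. Between 109 and 132 rows held 50% of this sum. TPM keeps no record of read numbers, and the depth behind each value is unknown.

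The first question was how much of the F. trinervia leaf transcript pool changed at low CO2. The share of a library's TPM that would have to move between rows to turn it into another library was 14.0% on average for the 9 pairs of a low CO2 and a control library, with a range of 10.9% to 18.5%. It was 6.90% (4.86% to 8.41%) between low CO2 libraries and 7.02% (5.83% to 8.04%) between control libraries. Every low CO2 to control pair was thus further apart than any pair within a group. The exact permutation test of this contrast gave p = 0.1, the smallest that 3 libraries against 3 allow. The most distant pair was low CO2 library 1 and control library 2.

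Of the 13793 members, limma called 2785 (20.2%) at a Benjamini-Hochberg adjusted p below 0.05. At low CO2, 1280 rows (9.28%) were higher and 1505 (10.9%) were lower. The libraries of the CO2 levels did not overlap in 5567 rows (40.4%), which included 2782 of the called rows. Called rises had a median of 0.78 and called falls a median of -0.93 on the log2(TPM + 1) scale, while the median change of all members was 0.01. A change of at least 2-fold on this scale was reached by 396 rises and 673 falls, and one of at least 8-fold by 18 rises and 11 falls. The number of calls fell to 1459 without low CO2 library 3 and to 1803 without control library 2. Called rises numbered 851 without low CO2 library 1, 584 without low CO2 library 3, 742 without control library 2 and 773 without control library 3.

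Control library 2 was often the extreme library behind a call. It was the lowest control library in 885 of the 1280 rises (69.1%) and the highest in 883 of the 1505 falls (58.7%). Low CO2 library 1 was the highest low CO2 library in 690 rises (53.9%) and the lowest in 582 falls (38.7%). Among the 11008 rows not called, low CO2 library 1 was the highest low CO2 library in 42.3% and control library 2 the highest control library in 22.3%. How often each was the lowest of its level was not counted there, so the shares of lowest values have no background. The median-ratio scaling factor was 0.93 for control library 2, against 1.09 and 0.98 for control libraries 1 and 3. Without both libraries, 1697 rows were called, of which 684 were rises.

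Members were grouped into 4 abundance classes by their mean TPM over the 6 libraries, so that both CO2 levels counted alike. The share of rows called was lowest in rows of 1 to 10 TPM and highest in rows of 100 to 1000 TPM. Of the 7533 rows of 1 to 10 TPM, 343 were higher and 652 lower at low CO2 (13.2% called). Of the 5219 rows of 10 to 100 TPM, 735 were higher and 656 lower (26.7%). Rows of 100 to 1000 TPM numbered 911, with 184 higher and 182 lower (40.2%). The 130 rows of 1000 TPM and over had 18 higher and 15 lower (25.4%). The share called at 1 to 10 TPM was 8.58%, 6.27%, 7.67% and 8.23% without low CO2 library 1, low CO2 library 3, control library 2 and control library 3 in turn. At 10 to 100 TPM it was 13.6%, 17.3% and 17.7% without low CO2 library 3, control library 2 and control library 3.

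The class of 100 to 1000 TPM had the highest share called in each setting for which class shares were taken, 15 with the fit reported here. They were not taken for the model of 24 libraries, or without low CO2 library 1 and control library 2 together. Falls outnumbered rises in the class of 1 to 10 TPM, by a margin that depended on scaling, with 495 rises and 566 falls after quantile normalization. In the class of 1000 TPM and over the order turned after median-ratio scaling (12 rises, 13 falls) but not after quantile normalization (18 and 15). It also turned with no variance trend (11 and 12), and without low CO2 library 2 or 3 or control library 1 or 2. Without control library 3, that class had 15 rises and 11 falls. At 10 to 100 TPM the order turned without low CO2 library 3 (323 rises, 385 falls). It also turned there without low CO2 library 1 or 2, or control library 2 or 3. Without control library 1, that class had 681 rises and 502 falls. The median residual SD between libraries of 1 level decreased along the classes, being 0.23, 0.18, 0.18 and 0.13 from the least to the most abundant on the log2(TPM + 1) scale. The most abundant class thus had the smallest spread, but fewer of its rows were called than in the class below. Its middle 50% of changes lay between -0.22 and 0.21, against -0.33 and 0.41 in rows of 100 to 1000 TPM. The pseudocount of 1 understates changes of rows near 1 TPM.

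**Figure D1:**
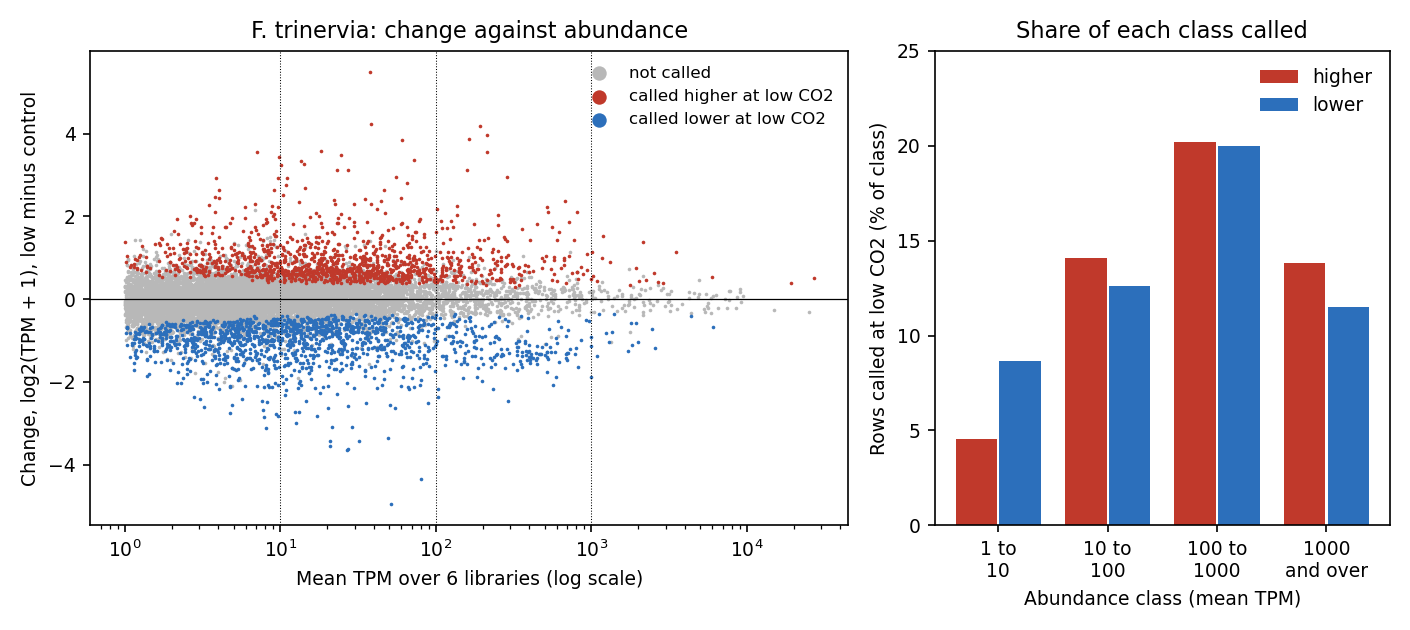
Left, change of each F. trinervia row at low CO2 (log2(TPM + 1), low CO2 minus control, means of 3 libraries) against its mean TPM on a log axis, with dotted lines at the class bounds. Right, percentage of the rows of each class called higher or lower by limma. Calls are most frequent at 100 to 1000 TPM (40.2%), and the widest rise (5.48) and the widest fall (-4.94) lie between 10 and 100 TPM.

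Large changes were also most common among the calls of 100 to 1000 TPM, where 61 rises and 119 falls reached 2-fold (49.2% of the calls). The share was 42.6% at 1 to 10 TPM, 32.7% at 10 to 100 TPM and 30.3% at 1000 TPM and over. Called falls in the class of 100 to 1000 TPM had a median of -1.17, and called rises a median of 0.80. In rows of 1000 TPM and over, the widest rise was 1.53 and the widest fall -1.36. All 18 rises and 11 falls of at least 8-fold lay below 1000 TPM, and 11 and 10 of them lay between 10 and 100 TPM.

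The share of a library's TPM held by each class did not shift by more than the spread between libraries. Rows of 1000 TPM and over held 45.5%, 47.9% and 48.5% of the TPM in the low CO2 libraries, against 45.1%, 46.6% and 48.2% in the control libraries. Rows of 100 to 1000 TPM held 26.1% ± 0.768 at low CO2 and 26.6% ± 0.577 in the control (SD, n = 3 each). Rows of 10 to 100 TPM held 15.5% ± 0.464 at low CO2 and 15.1% ± 0.794 in the control. Rows of 1 to 10 TPM held 3.12% ± 0.129 at low CO2 and 3.23% ± 0.310 in the control. The libraries of the 2 levels overlapped in each class. Exact permutation tests gave p between 0.5 and 0.8 (two-sided, Benjamini-Hochberg adjusted p = 0.8 in all 4), in a design that cannot go below 0.1.

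**Figure D2:**
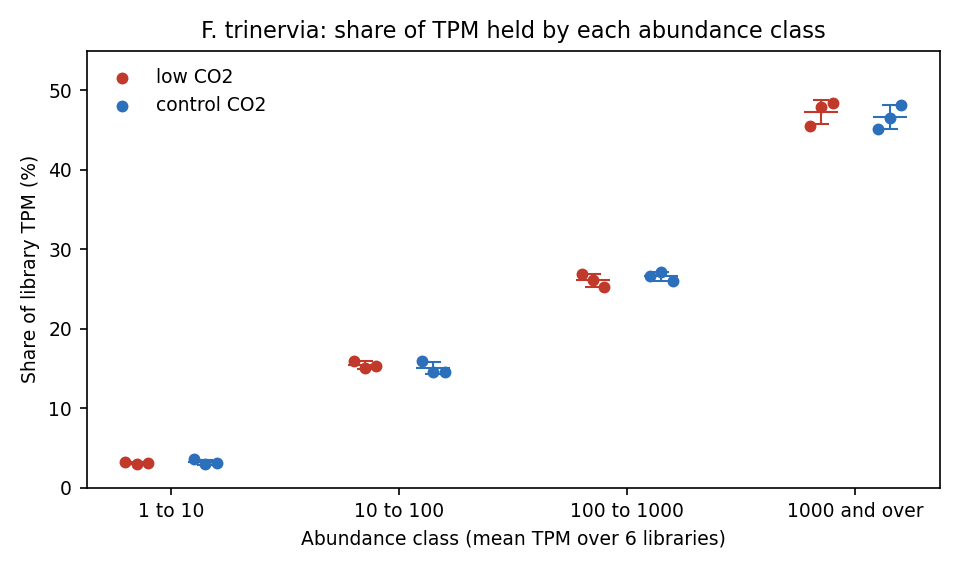
Share of each F. trinervia library's TPM (%) held by 4 abundance classes, with low CO2 libraries in red and control libraries in blue. Points are libraries 1 to 3 from left to right, and bars the mean ± SD (n = 3). The 2 CO2 levels overlap in every class.

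Since TPM values share a fixed total, gains and losses must nearly cancel, and their size and source are given here. The called rises summed to 21.5%, 19.8% and 19.5% of the TPM total in the low CO2 libraries, against 11.97%, 11.2% and 13.1% in the control libraries. The called falls summed to 7.27%, 7.75% and 7.53% at low CO2, against 14.99%, 17.4% and 13.8% in the control. These sums describe rows chosen by the same test. The net gain of the rises was 8.18% of the TPM total, of which 41.5% came from rows of 100 to 1000 TPM and 37.97% from rows of 1000 TPM and over. The net change of the falls was -7.87%, with 57.2% from rows of 100 to 1000 TPM and 21.0% from rows of 1000 TPM and over. Rows of 1 to 10 TPM, which made up 54.6% of the members, contributed 1.78% of the gain and 3.15% of the loss.

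The set of the most abundant transcripts was largely shared by the CO2 levels. Of the 10 rows with the highest mean at each level, 9 were the same, and of the 100 highest, 88. The 10 rows with the highest means over the 6 libraries ranged between 8564 and 26996 TPM, and 2 of them were higher and 0 lower at low CO2. The other 8 missed the threshold. The row with the highest mean of all had 31831 ± 3754 TPM at low CO2 and 22160 ± 2161 TPM in the control (SD, n = 3 each), a change of 0.52 ± 0.12 (SE, limma adjusted p = 0.0193). The other called row among the 10 had 21759 ± 286 TPM at low CO2 and 16605 ± 1742 TPM in the control (change 0.40, limma adjusted p = 0.0268). Both changes were well under 2-fold, yet their summed gain of 9671 and 5153 TPM exceeded that of any other called row over 1000 TPM.

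Among the 100 most abundant rows, 12 were higher and 10 lower at low CO2 (22%). The share among the 500 most abundant was 38%, with 89 higher and 101 lower. In called rows over 1000 TPM, the largest loss of TPM was to 4675 ± 710 TPM at low CO2. The control had 7452 ± 397 TPM (SD, n = 3 each, change -0.68). The next loss had a wider change of -1.17, with 1601 ± 408 TPM at low CO2 and 3535 ± 302 TPM in the control. The libraries of the CO2 levels did not overlap in any of the 33 called rows of this class.

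At the other end, few members were listed at 0 in a whole group. At low CO2, 3 rows were listed at 0 in all 3 libraries and above 0 in all control libraries, and all 3 were called. In the control, 6 rows were listed at 0 in all 3 libraries, of which 2 were called. Their highest group mean at the other level was 5.54 TPM for the rows at 0 at low CO2 and 8.11 TPM for the rows at 0 in the control, so no fold is given. A whole-group change to or from 0 was thus not seen above 10 TPM.

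The second question was which of these changes were not seen in the C3 and C3-C4 species. The same test called 31.4% of 13391 rows in F. robusta and 25.5% of 14578 in F. sonorensis. In F. ramosissima it called 0.0256% of 15638 rows (4 rows). By each species' own abundance, the share called was also highest at 100 to 1000 TPM in F. robusta (45.1%). In F. sonorensis it was highest at 1000 TPM and over (43.4%, against 39.1% at 100 to 1000 TPM). Falls outnumbered rises at 1 to 10 TPM in F. robusta (1268 and 634) and F. sonorensis (954 and 321) as well. The median residual SD of F. ramosissima was between 0.30 and 0.46 by class, above every class of F. trinervia. The absence of a call in F. ramosissima therefore says little, and a called difference from the mean of the other species was required as well. That contrast does not test F. ramosissima singly. A row was counted as not seen elsewhere when it was called in F. trinervia, was not called in the same direction in any other species, and differed from the mean change of the 3 other species in the direction of the F. trinervia change. The difference was fitted on all 24 libraries over the 8632 rows with at least 1 TPM in each species.

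Most F. trinervia calls that could be compared were also called in the same direction elsewhere. Of the 2785 calls, 1188 (42.7%) were called in the same direction in at least 1 other species, 506 of them rises and 682 falls. A further 532 (19.1%) were not called in the same direction elsewhere, and their difference from the other species was not called either. Of these, 33 had a call in the opposite direction in another species. Another 162 (5.82%) were not seen elsewhere. The remaining calls could not be compared, because 876 (31.5%) had a mean under 1 TPM in at least 1 other species and 27 (0.969%) were at 0 in all 18 libraries of the other species. The sources used here do not state how the rows of the 4 species were matched.

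In the class of 1 to 10 TPM, 52.0% of the calls were under 1 TPM in another species, so shares by class are given over the 1882 calls that could be compared. The share called in the same direction elsewhere was 56.9% of 464 calls at 1 to 10 TPM, 62.8% of 1095 at 10 to 100 TPM, 72.7% of 297 at 100 to 1000 TPM and 76.9% of 26 at 1000 TPM and over. Among all rows compared, called in F. trinervia or not, a call elsewhere with the sign of the F. trinervia change was made in 27.1%, 40.2%, 51.1% and 37.7% of the 4 classes in the same order. Calls not seen elsewhere made up 9.27%, 8.68%, 7.74% and 3.85% of the comparable calls of these classes.

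**Figure D3:**
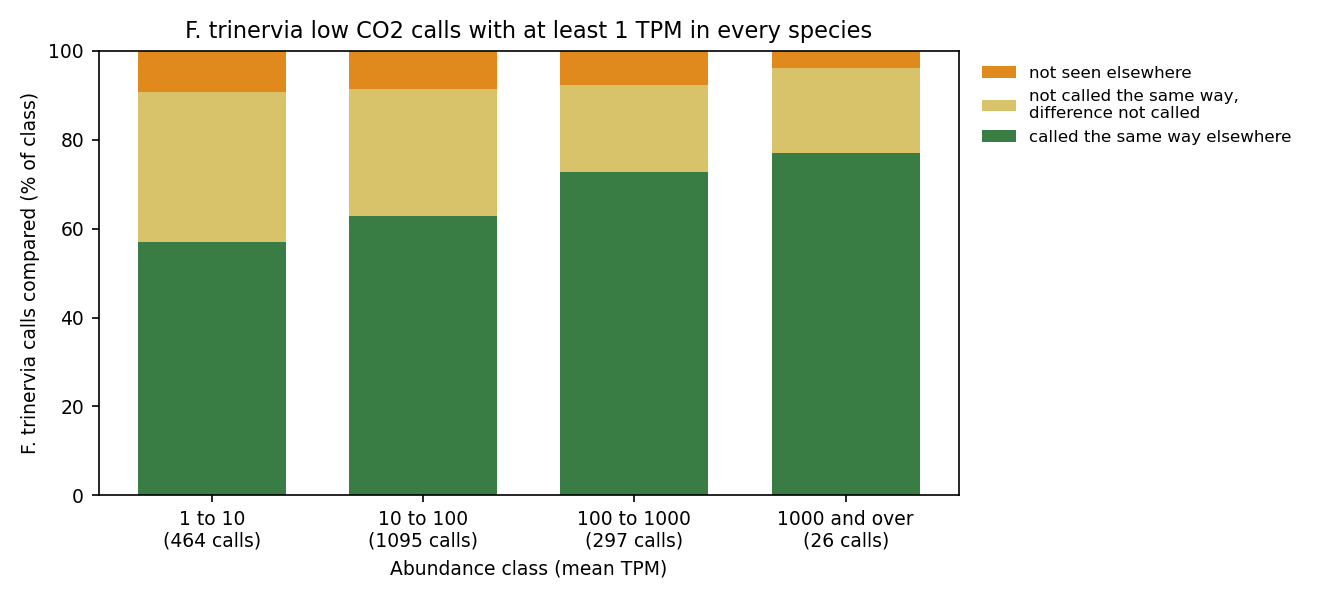
F. trinervia calls at low CO2 with at least 1 TPM in every species, by abundance class (% of these calls in the class), split by what the same rows did in F. robusta, F. sonorensis and F. ramosissima. Green marks calls made in the same direction elsewhere, 56.9% at 1 to 10 TPM and 76.9% at 1000 TPM and over, yellow marks calls with neither a call in the same direction nor a called difference, and orange marks calls not seen elsewhere.

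The same rows were followed in the other species for the calls that could be compared. The 997 called falls that could be compared had a median of -0.89 in F. trinervia. The same rows had medians of -0.55 in F. robusta, -0.39 for F. sonorensis and -0.54 in F. ramosissima, and were below 0 in 85.7%, 85.1% and 87.3% of cases. The 885 called rises had a median of 0.73 in F. trinervia, and 0.30, 0.35 and 0.40 in the same 3 species in that order, where 73.1%, 77.5% and 80.6% were above 0. Over all 8632 rows, 63.3%, 65.2% and 64.5% had the sign of F. trinervia. The 152 falls of 100 to 1000 TPM had a median of -1.20 in F. trinervia and -0.94 in F. robusta, where 94.7% had the same sign. The rows were selected in F. trinervia, so their medians there are not comparable in size with those elsewhere.

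The F. trinervia change differed from the mean change of the 3 other species in 442 of 8632 rows, with 315 (3.65%) above it and 127 (1.47%) below it. By single species, 655 rows (7.59%) differed from F. robusta, 360 (4.17%) from F. sonorensis and 111 (1.29%) from F. ramosissima. Without control library 2 of F. trinervia these counts were 386, 209 and 36, and without F. ramosissima control library 3 they were 1177, 769 and 257. The first was 434 without low CO2 library 1, and the first and second were 470 and 210 without low CO2 library 3. The count against F. ramosissima was 59, 43, 173 and 46 without low CO2 library 1, low CO2 library 3, control library 1 and control library 3 of F. trinervia in turn. Of the 315 rows above the other species, 141 were called rises in F. trinervia and 170 were not called there. Their median change was 0.59 in F. trinervia and -0.54 over the other species, so that many of these differences rested on falls elsewhere. Of the 127 rows below, 80 were called falls in F. trinervia, with a median of -0.93 in F. trinervia and 0.17 over the other species.

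The split between rows above and below the other species depended on scaling, being 257 and 243 after median-ratio scaling and 320 and 317 after quantile normalization. The number of such rows was 1677 without F. ramosissima. There the 1 TPM minimum applied only to the species kept, so the rows tested were not limited to the 8632. The number was 829 without control library 3 of F. ramosissima. It was 213, 217, 161 and 241 without F. trinervia low CO2 library 1, low CO2 library 3, control library 2 and control library 3 in turn.

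The 162 changes not seen elsewhere were 112 rises and 50 falls, or 8.61% of the F. trinervia calls that could be compared. By abundance they were 24 rises and 19 falls at 1 to 10 TPM, 71 and 24 at 10 to 100 TPM, 17 and 6 at 100 to 1000 TPM, and 0 and 1 at 1000 TPM and over. The excess of rises changed with the settings, with 99 rises and 84 falls after median-ratio scaling and 113 and 112 after quantile normalization. The total was 78, 55, 59 and 84 without low CO2 library 1, low CO2 library 3, control library 2 and control library 3 in turn. It was 448 without F. ramosissima, on rows no longer required to reach 1 TPM in that species, and 272 without its control library 3.

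Of the 162, 76 had a call in the opposite direction in at least 1 other species, 61 of them rises in F. trinervia and 15 falls. Among all 1882 comparable calls, 137 (7.28%) had one. Over all 8632 rows compared, a call elsewhere against the sign of the F. trinervia change was made in 12.8%. The 162 were selected for a called difference from the other species and for having no call in the same direction, which favours opposite calls and low or opposite changes elsewhere, so these values are a description. All the opposite calls were in F. robusta or F. sonorensis. The 112 rises had a median change of 0.96 in F. trinervia, against -0.45 for F. robusta, -0.25 for F. sonorensis and -0.07 for F. ramosissima. The 50 falls had a median of -1.18 in F. trinervia, against -0.0025 for F. robusta, 0.06 for F. sonorensis and -0.18 for F. ramosissima. In F. ramosissima, 48 of the 112 rises and 35 of the 50 falls had the sign of F. trinervia. Of these, 7 rises and 3 falls changed at least 2-fold there. The 7 included the widest rises, of 3.97, 3.48, 3.12, 2.63, 2.53 and 2.36 in F. trinervia. Their changes in F. ramosissima were 3.02, 1.15, 1.38, 1.90, 1.44 and 1.47 in that order, and none was called. The next widest rise, of 2.22, had a change of 0.16 there. The widest falls, of -2.78 and -2.50 in F. trinervia, had changes of -1.92 and -1.36 in F. ramosissima. The libraries of the CO2 levels did not overlap, in the direction of F. trinervia, in 13 of the 112 and 8 of the 50 (11.6% and 16%). Over all 8632 rows compared, the F. ramosissima libraries did not overlap in 7.18% with low CO2 higher and in 12.002% with low CO2 lower.

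**Figure D4:**
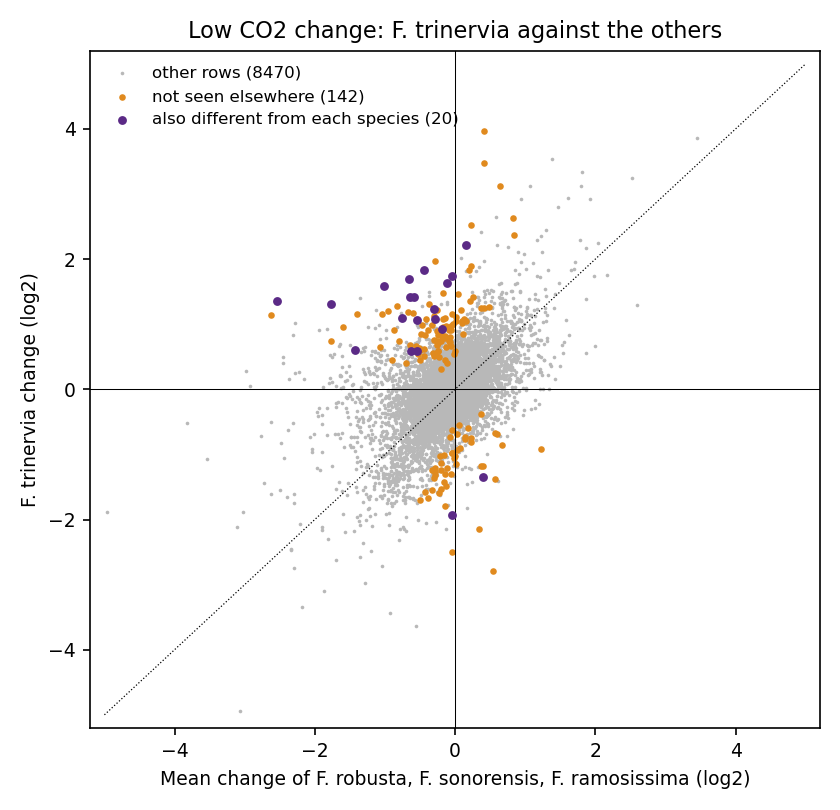
Change at low CO2 in F. trinervia against the mean change of F. robusta, F. sonorensis and F. ramosissima (both on the log2(TPM + 1) scale, low CO2 minus control) for the 8632 rows compared. Orange and purple points are the 162 rows not seen elsewhere, the 20 purple ones also differing from each species singly, and the dotted line marks equal change. These rows were selected for a called difference, so their distance from the line follows from the selection, and 112 of them are rises and 50 falls.

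The levels behind the 112 rises were set beside those of the other species. Their median was 29.8 TPM at low CO2 and 13.3 TPM in the control in F. trinervia. It was 13.1 TPM at low CO2 and 19.1 TPM in the control in F. robusta. F. sonorensis had 19.6 TPM at low CO2 and 27.3 TPM in the control, and F. ramosissima 11.3 TPM at low CO2 and 12.3 TPM in the control. The F. trinervia control was the lowest of the 4 species in 42 of the 112 rows (37.5%), against 17.1% of all rows compared, and its low CO2 level the highest in 60 (53.6%), against 20.9%. These shares use the libraries that gave the change and are given without a test. Levels are compared here within a row, across species whose gene lengths may differ.

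A stricter count required a call against each of the 3 species singly, and 20 rows met it, 18 rises and 2 falls. The rises were 3 rows of 1 to 10 TPM, 12 of 10 to 100 TPM and 3 of 100 to 1000 TPM. Their changes ranged between 0.58 and 2.22 in F. trinervia, with a median of 1.33, and 14 of them reached 2-fold. In 14 of the 18 the change was below 0 in all 3 other species, and in 6 it was within 0.5 of 0 in each. The selection for a called difference from each species favours low or opposite changes there, so this is a description. The count was 11, 8, 8 and 9 without low CO2 library 1, low CO2 library 3, control library 2 and control library 3 in turn, and 34 without control library 1. It was 37 without F. ramosissima control library 3, 35 after quantile normalization and 57 with library weights. With F. ramosissima left out, only 2 differences and no minimum in that species were required, and the count was 235.

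The most abundant of these 18 rises had 650, 979 and 919 TPM in the low CO2 libraries of F. trinervia, against 138, 170 and 243 TPM in its control libraries. Its change was 2.22 ± 0.24 (SE, limma adjusted p = 0.00177), and the libraries did not overlap. Its changes in F. robusta, F. sonorensis and F. ramosissima were 0.20, 0.09 and 0.16, and none was called. The row had 1835 ± 519 TPM at low CO2 and 1574 ± 303 TPM in the control in F. robusta (SD, n = 3 each). It had 433 ± 127 TPM at low CO2 and 399 ± 71.5 TPM in the control in F. sonorensis, and 883 ± 116 TPM at low CO2 and 803 ± 218 TPM in the control in F. ramosissima. The low CO2 level of F. trinervia thus lay within the range of the others, and its control level below it. The difference from their mean change was 2.07 ± 0.30 (SE, limma adjusted p = 0.000462).

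The second most abundant had 593, 537 and 520 TPM at low CO2, against 143, 176 and 194 TPM in the control (change 1.69 ± 0.14, SE, limma adjusted p = 0.000892). Unlike the first, it was far less abundant outside F. trinervia. It had 33.7 ± 5.91 TPM at low CO2 and 59.8 ± 17.1 TPM in the control in F. robusta (SD, n = 3 each). F. sonorensis had 6.08 ± 2.30 TPM at low CO2 and 14.7 ± 3.74 TPM in the control, and F. ramosissima 6.21 ± 0.227 TPM at low CO2 and 6.73 ± 3.14 TPM in the control. Its difference from the mean change of the others was 2.35 ± 0.32 (SE, limma adjusted p = 0.000225).

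The more abundant of the 2 falls in the stricter count had 168, 203 and 188 TPM at low CO2, against 437, 421 and 579 TPM in the control. Its change was -1.35 ± 0.15 (SE, limma adjusted p = 0.002), and 0.11, 0.59 and 0.48 in F. robusta, F. sonorensis and F. ramosissima. The other fall had 1.43, 0.9 and 0 TPM at low CO2, against 5.12, 5.99 and 5.07 TPM in the control. That row stood at 812 ± 67.2 TPM at low CO2 and 1065 ± 424 TPM in the control of F. ramosissima (SD, n = 3 each). In F. robusta it had 8.9 ± 1.43 TPM at low CO2 and 5.73 ± 0.853 TPM in the control, close to the F. trinervia control level.

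Of the IDs themselves, 2 that rose and 2 that fell are named, the widest change each way and the widest each way among those not seen elsewhere. Only called rows with a mean of at least 10 TPM and libraries that did not overlap were considered. Gene06229 had the widest rise of all members with a mean of at least 10 TPM. It had 141, 27.3 and 55.8 TPM in the low CO2 libraries, against 0.42, 0.39 and 0.30 TPM in the control libraries. The control was thus near 0 in each library and the low CO2 libraries were spread over a wide range, all of them higher. The change was 5.48 ± 0.51 (SE, limma adjusted p = 0.00127).

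In F. robusta, Gene06229 went the other way, listed at 0 in all 3 low CO2 libraries, against 13.9, 2.72 and 1.10 TPM in the control (change -2.29, limma adjusted p = 0.0232). F. sonorensis had 4.30 ± 2.002 TPM at low CO2 and 7.28 ± 2.74 TPM in the control (SD, n = 3 each), and the row was listed at 0 in all 6 F. ramosissima libraries. The difference between species was not tested for this row, since it was not above the minimum in F. ramosissima.

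Gene14406 had the widest rise among the changes not seen elsewhere, with 742, 150 and 330 TPM in the low CO2 libraries of F. trinervia, against 31.6, 11.1 and 23.4 TPM in the control. All low CO2 libraries were above all control libraries (change 3.97 ± 0.58, SE, limma adjusted p = 0.00436). The difference from the mean of the other species was 3.55 ± 0.61 (SE, limma adjusted p = 0.00223). It was 4.70 from F. robusta and 5.004 from F. sonorensis, both called, and F. sonorensis was called in the opposite direction. From F. ramosissima the difference was 0.95 ± 0.75 (SE, limma adjusted p = 0.6). There the row had 114, 28.9 and 69.4 TPM at low CO2, against 10.7, 6.5 and 4.15 TPM in the control, so its libraries did not overlap either. A difference between F. trinervia and F. ramosissima was not shown for this row.

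Gene05193 had the widest fall. It had 0.46, 6.57 and 1.68 TPM in the low CO2 libraries of F. trinervia, against 79.8, 151 and 68.7 TPM in the control (change -4.94 ± 0.58, SE, limma adjusted p = 0.00232). It also fell in F. robusta (-1.97) and F. sonorensis (-4.36). In F. ramosissima it had 2.07 ± 0.807 TPM at low CO2 and 41.9 ± 45.7 TPM in the control (SD, n = 3 each, change -2.87, limma adjusted p = 0.398). Its difference from the mean of the other species was not called (-1.87 ± 0.95, SE, limma adjusted p = 0.295). The F. trinervia libraries of the 2 levels did not overlap.

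Gene25307 had the widest fall among the changes not seen elsewhere with a mean of at least 10 TPM. A row of 1 to 10 TPM fell further (-2.78). Gene25307 had 14.96, 33.7 and 17.1 TPM in the low CO2 libraries, against 243, 182 and 40.0 TPM in the control. The groups did not overlap, but control library 3 was close to low CO2 library 2. The change was -2.50 ± 0.64 (SE, limma adjusted p = 0.0328), and the adjusted p was 0.0901, 0.105, 0.0767 and 0.105 without low CO2 library 1, low CO2 library 3, control library 1 and control library 2 in turn. The difference from the mean of the other species was -2.46 ± 0.57 (SE, limma adjusted p = 0.016), and the adjusted p was 0.0646, 0.0533 and 0.0747 without low CO2 library 1, low CO2 library 3 and control library 2. F. sonorensis rose (0.81), while F. ramosissima had a change of -1.36. In F. ramosissima the row had 15.1, 25.3 and 15.9 TPM at low CO2, against 37.1, 68.6 and 44.6 TPM in the control. These libraries did not overlap either. The difference from F. ramosissima was -1.15 (limma adjusted p = 0.459), so a difference between F. trinervia and F. ramosissima was not shown.

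**Figure D5:**
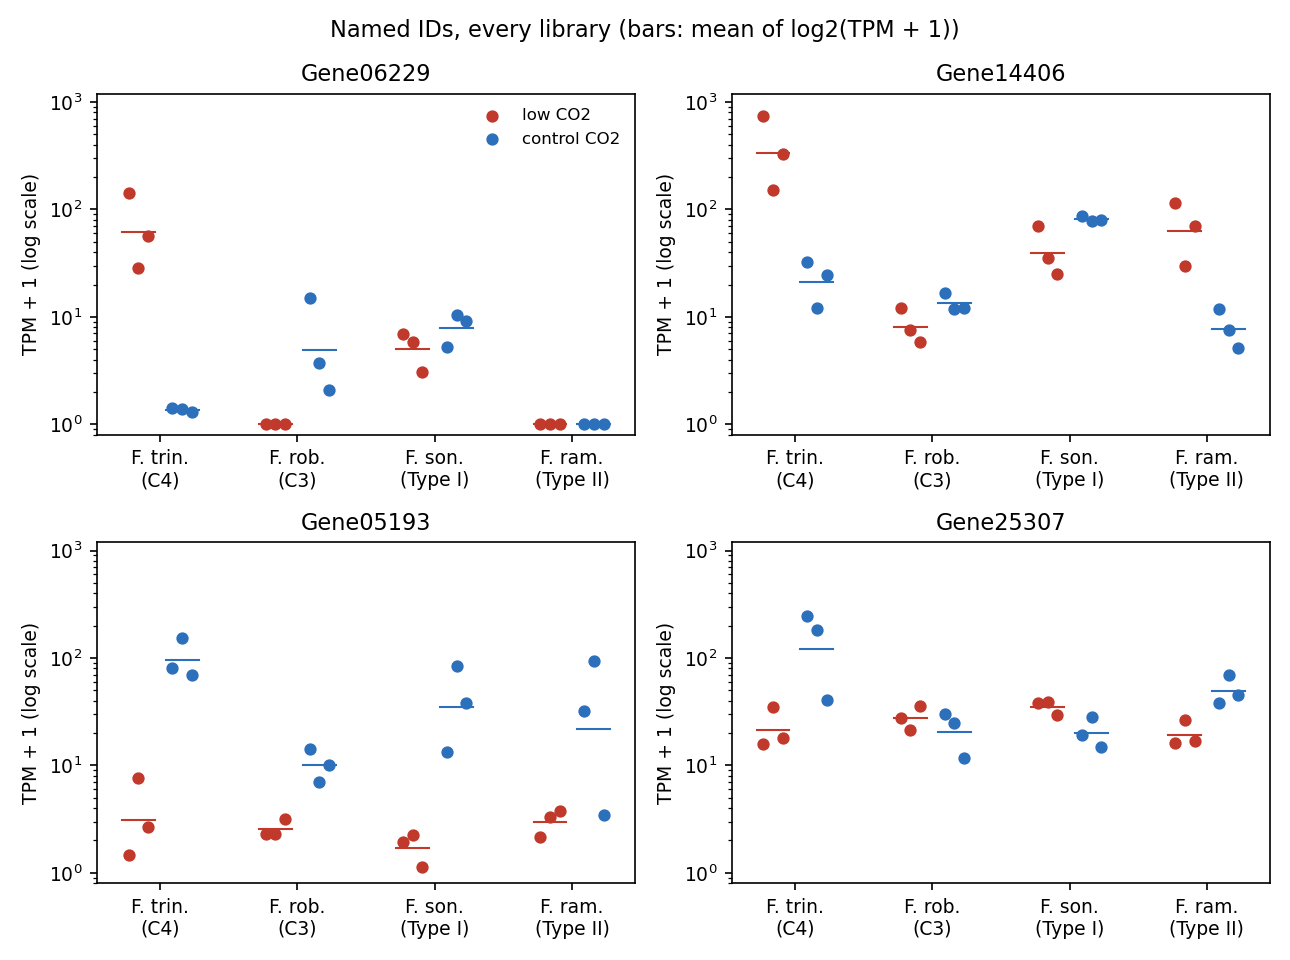
TPM + 1 on a log axis of the 4 named IDs in every library of F. trinervia (C4), F. robusta (C3) and the C3-C4 species F. sonorensis (Type I) and F. ramosissima (Type II), low CO2 in red and control in blue, with a line at the mean of log2(TPM + 1). Gene06229 is higher at low CO2 in F. trinervia and at 0 in F. robusta at low CO2. Gene14406 is also higher, and Gene25307 also lower, at low CO2 in F. ramosissima. Gene05193 is lower at low CO2 in F. robusta and F. sonorensis as well.

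Members listed at 0 elsewhere gave a further group, and since the matching of rows between species is not stated, a value of 0 does not show that the gene is missing there. At 0 in all 18 libraries of the other species were 171 members (1.24%), with a median of 2.91 TPM. Of these, 132 were under 10 TPM and 2 over 1000 TPM. At low CO2, 15 of them were higher and 12 lower, which is 15.8% called, against 20.2% of all members. Together they held 1.25% ± 0.0496 of the TPM total at low CO2 and 1.41% ± 0.0451 in the control (SD, n = 3 each). None of the rows over 1000 TPM among them was called.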

How the data were processed

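Leaf mRNA of 4 Flaveria species at 2 CO2 levels was sequenced, and 24 libraries were used here, 6 of them from F. trinervia. The authors aligned reads to the genome of each species with STAR and estimated abundance with RSEM, as the paper's RNA-seq methods state. Those methods differ from the labels in growth conditions and name no low CO2 treatment. The values deposited by the authors are in TPM, 1 column per library, and 0 columns were left unused. RSEM divides reads that match several copies, so near-identical copies are uncertain. Since TPM values of a library share a fixed total, a rise of abundant rows lowers the others.

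Values of log2(TPM + 1) were tested with limma 3.58.1 in R 4.3.3 (two-sided, moderated with eBayes and its trend option, Benjamini-Hochberg adjusted p below 0.05 over all rows tested). The low CO2 change was fitted on the 6 F. trinervia libraries, and the difference between species on 24 libraries with 1 mean per species and CO2 level. Shares of TPM were compared by exact permutation tests. The fits were checked on simulated data with independent noise in each row and library. These data hold no deviation shared across the rows of a library, so the check does not cover one. The IDs named are the widest change each way among called rows with a mean of at least 10 TPM and libraries that do not overlap, and the same among changes not seen elsewhere. The members, classes and lists were chosen with earlier results of these data known. Alternatives covered the pseudocount (0.1), the minimum TPM (none or 5), quantile and median-ratio scaling, library weights, the variance trend, a replicate block, the model of 24 libraries, and leaving out libraries or F. ramosissima. Leaving out both low CO2 library 1 and control library 2, and taking the calls elsewhere from the model of 24 libraries, were added after the data were seen. A long-read sample of several F. ramosissima organs was not used here.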

Additional observations from a re-analysis of the deposited data

Results flagged for a closer look

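The F. trinervia change at low CO2 differed from the mean change of F. robusta, F. sonorensis and F. ramosissima in 442 of 8632 rows by the limma contrast, a contrast with their mean and not with each species. Gene14406 was one of them, with a difference of 3.55 on the log2(TPM + 1) scale, and Gene25307 another, with a difference of -2.46. Neither was shown to differ from F. ramosissima alone (0.95, limma adjusted p = 0.6, and -1.15, limma adjusted p = 0.459). Gene06229 rose in every low CO2 library of F. trinervia, whereas F. robusta had a change of -2.29 with its libraries moving the opposite way, and the difference between these species was not tested. Groups of 3 libraries were too small to test a single library as an outlier.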

How the results depend on the processing

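The tests of the share of TPM held by each abundance class cannot pass a threshold of 0.05 and say nothing about stability. With single libraries left out, the shift (low CO2 minus control, in percent of the TPM total) lay between -0.22 and 0.06 at 1 to 10 TPM, 0.12 and 0.84 at 10 to 100 TPM, -0.94 and -0.17 at 100 to 1000 TPM, and -0.08 and 1.54 at 1000 TPM and over. Of the 2785 calls (1280 rises, 1505 falls), library weights gave 4605 (2341 and 2264), leaving out low CO2 library 1 and control library 2 gave 1697 with 684 rises, and leaving out single libraries gave 1459 to 2345 (584 to 1218 rises, 875 to 1202 falls). Of the 442 differences between species (315 above, 127 below), a minimum of 5 TPM gave 273 (204 and 69), library weights 2621 (1848 and 773), leaving out F. ramosissima 1677 (1018 and 659) and leaving out its control library 3 829 (574 and 255). Rows below were 215 with no minimum, 243 after median-ratio scaling and 317 after quantile normalization. Single F. trinervia libraries left out gave 161 to 463 (114 to 381 above, 47 to 83 below). Of the 162 changes not seen elsewhere (112 rises, 50 falls), a minimum of 5 TPM gave 104 with 23 falls, library weights 687 (479 and 208), leaving out F. ramosissima 448 (255 and 193) and its control library 3 272 (172 and 100). Falls were 83 with no minimum, 84 after median-ratio scaling and 112 after quantile normalization, and single libraries left out gave 55 to 160 (39 to 132 rises, 16 to 31 falls). The cause of these shifts was not tested. Some settings left fewer rows or libraries, while settings with no minimum, or without F. ramosissima and its 1 TPM minimum, allowed more rows.

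Whether the library numbers paired the libraries could not be settled, and the fit reported here did not pair them. The correlation of deviations across rows was 0.23, 0.30 and -0.01 for numbers 1, 2 and 3. It was -0.25 and -0.29 for the crossed pairs of numbers 1 and 2. Libraries 1 and 2 of each level correlated best with their own number, and library 3 of each level did not. A replicate block gave 3118 calls, of which 2595 were shared with the 2785, and 171 changes not seen elsewhere (135 rises, 36 falls), of which 121 were shared with the 162.

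The changes of Gene06229, Gene14406 and Gene05193 kept their call in all 15 alternatives, and Gene25307 in 11. Depth is unknown, the spread of 3 libraries sets the precision, and F. ramosissima, with the widest spread, limits what can be called absent there.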
